A study of Mus musculus with 2 samples.

Results

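The class I odorant receptor genes that lie before the beta-globin locus on mouse chromosome 7 were examined in RNA-seq data from olfactory epithelium, the nasal tissue that houses the olfactory sensory neurons. The members are the entries of the deposited Olfr table with a locus on chromosome 7 that starts from 109.5 to just under 110.98 Mb (mm9), less Olfr78, Olfr560, Olfr558, Olfr544 and Olfr545, a group of class I receptors best known from tissues other than the nose. The rule uses position and name only, and it gave 67 of the 1112 entries of the table. The series has 2 samples from adult C57BL/6 mice, which the titles and the genotype field call wild type. They form 1 group, although the second is described as 3bko, a term the sources used here do not explain. Total RNA from this whole tissue went into TruSeq libraries.

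The table holds a single FPKM per entry, that is, fragments per kilobase of gene model relative to all mapped fragments. Each row of the table names wt and 3bko as its pair of conditions, and nothing ties the value to either library. It may therefore stem from the sample described as 3bko or from both samples combined. All levels below are the authors' single values, with no standard deviation and no test of any difference. The table lists olfactory receptors only, so the tissue label was not checked against markers of neurons or supporting cells. In whole tissue, fewer neurons that express a receptor and less of its RNA per neuron cannot be told apart.

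Odorant receptors are G protein-coupled receptors with a membrane-spanning heptahelical fold. A mature olfactory neuron typically expresses a single receptor gene from one of its alleles, and the level of a receptor in tissue RNA is therefore a population measure. Class I receptors are the older, fish-like branch of the family. In mouse they sit almost entirely in one cluster on chromosome 7 that the beta-globin genes interrupt. Class I neurons lie mainly in the dorsal zone of the epithelium, and several class I receptors respond to carboxylic acids. A long-range enhancer called the J element acts on class I gene choice in this cluster. Most of the receptors below have no ligand that could be stated here with certainty, so they are described by receptor family (the MOR names), position and sequence.

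All 67 members matched a protein-coding gene in the RefSeq table by symbol, and their encoded proteins had a median of 316 residues (308 to 346). A conserved element helps to place them. At the inner end of the third membrane helix, odorant receptors carry an Asp-Arg pair that takes part in G protein coupling. The coding stretch of 36 bases around that pair was found in 66 members, all but Olfr589. It is given here first as the most common base at each position among the members. The 4 members with the highest FPKM follow (Olfr613, Olfr598, Olfr550 and Olfr549). Then come Olfr566 and Olfr585, close relatives that rank 8 and 66 of the 67 members by FPKM. Olfr555, which is listed at 0, and Olfr67, the last member before the globin genes, are given last. The sequences come from GENCODE M21 transcripts of chromosome 7, read 5′ to 3′, and capitals mark bases that differ from the most common base of the members.
members, most common base: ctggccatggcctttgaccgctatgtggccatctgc
Olfr613: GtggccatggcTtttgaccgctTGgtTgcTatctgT
Olfr598: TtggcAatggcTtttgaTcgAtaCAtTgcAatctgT
Olfr550: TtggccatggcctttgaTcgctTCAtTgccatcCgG
Olfr549: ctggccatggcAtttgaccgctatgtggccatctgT
Olfr566: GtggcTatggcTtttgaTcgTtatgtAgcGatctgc
Olfr585: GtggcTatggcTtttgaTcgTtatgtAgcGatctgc
Olfr555: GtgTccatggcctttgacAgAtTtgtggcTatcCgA
Olfr67: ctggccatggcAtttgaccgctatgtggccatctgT

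The codon before the Asp-Arg pair encoded phenylalanine in 47 of the 66 members (71.2%) and tyrosine in 2 (3.03%). On the other side of the globin genes, phenylalanine was found in 26 of 50 class I receptors and tyrosine in 7. These shares describe coding sequence and were not tested. Members differed from their own most common bases at 2 to 13 of the 36 positions, with a median of 6. Olfr566 and Olfr585 have the same letters here, as have Olfr549 and Olfr67, yet their FPKM values differ, as described below. Across the 66 members, FPKM and the number of differing bases had a Spearman rho of -0.12. This is a description across genes that share the libraries, with no p.

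Transcript levels of the members were low. Their median FPKM was 0.421 and their quartiles were 0.175 and 0.829, against a median of 1.09 and quartiles of 0.377 and 3.00 over all 1112 entries. An FPKM of 1 or more was reached by 14 of the 67 members (20.9%), beside 52.5% of all entries. Another 43 members lay from 0.1 to below 1, and 10 lay below 0.1 (14.9%, beside 8.63% of all entries). Only 2 members reached the upper quartile of the whole table, and none stood among its 100 highest entries. Together the members account for 6.03% of the entries but 1.52% of the summed Olfr FPKM.

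Cuffdiff gave the status OK to 50 members and NOTEST to 17, the label it uses where it holds too few reads for its own test. The share with NOTEST was 25.4% among members, beside 18.3% of all 1112 entries. The NOTEST members ran from 0 to 0.308, and the OK members from 0.130 to 5.47. Both labels therefore occur between 0.130 and 0.308.

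The highest member, and the highest of all 127 class I entries, was Olfr613 of family MOR20 (chromosome 7, 110698882 to 110704018, plus strand), at an FPKM of 5.47. It ranked 139 of the 1112 entries and held 12.2% of the members' summed FPKM. All coding 50-mers of Olfr613, that is, its overlapping runs of 50 bases, were absent from other Olfr transcripts. Its locus in the table is 5137 bp long, so its FPKM covers untranslated sequence, while most other members were measured over coding sequence alone. Only 951 bases of Olfr613 are coding, leaving out the stop codon, and 50-mers of its untranslated sequence were not compared. The neighbours of Olfr613 had 0.570 (Olfr612) and 1.15 (Olfr615).

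Olfr598 of family MOR23 (110477002 to 110477961, plus strand) followed at 3.02. Only 61.7% of its coding 50-mers were found in no other Olfr transcript, so part of its value is uncertain. Next came Olfr550 (MOR16; 109726983 to 109728020) at 2.43 and Olfr549 (MOR31; 109702800 to 109703750) at 2.12, which are neighbours near the start of the cluster. With Olfr613 and Olfr598 these are the 4 members at 2 or more (5.97%, beside 34.6% of all entries), and all 4 lie on the plus strand. That strand holds 35 of the 67 members and also 8 of the 10 members below 0.1.

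Olfr578 of family MOR7 (110132735 to 110133676) had 1.97 and was the highest member on the minus strand. Olfr571 (MOR21; 110057383 to 110058351) had 1.65 and Olfr552 (MOR28; 109752870 to 109753823) had 1.54. The remaining 5 of the 12 highest lay close together. Olfr566 (MOR14; 110004835 to 110005785) had 1.40 and Olfr570 (MOR8; 110048883 to 110049821) had 1.32. Olfr610 (MOR9; 110654511 to 110655458) had 1.17, Olfr615 (MOR19; 110708993 to 110709934) had 1.15 and Olfr601 (MOR24; 110506738 to 110507727) had 1.14. Without replicates, the order of such neighbouring values could not be tested. Olfr594 at 1.12 and Olfr622 at 1.09 completed the members above 1, and Olfr557 was just below it at 0.9998. The highest 11 members held 51.9% of the summed FPKM of the set.

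At the bottom, Olfr555 of family MOR10 (109807337 to 109808284) was listed at 0. Above it were Olfr585 (110246257 to 110247213) at 0.00090, Olfr564 (109951994 to 109952944) at 0.0020 and Olfr583 (110199814 to 110200773) at 0.0033. These are all MOR14 receptors. Olfr628 of MOR22 (110880442 to 110881392) had 0.0074 and Olfr574 of MOR14 (110096981 to 110098021) had 0.019. Of these 6 lowest members, Olfr585, Olfr564, Olfr583 and Olfr628 share coding 50-mers with related genes. Olfr555 and Olfr574 share few or none, at 99.4% and 100% found in no other Olfr transcript. The other members below 0.1 were Olfr589 at 0.026, Olfr568 at 0.043, Olfr619 at 0.059 and Olfr624 at 0.089.

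**Figure D1:**
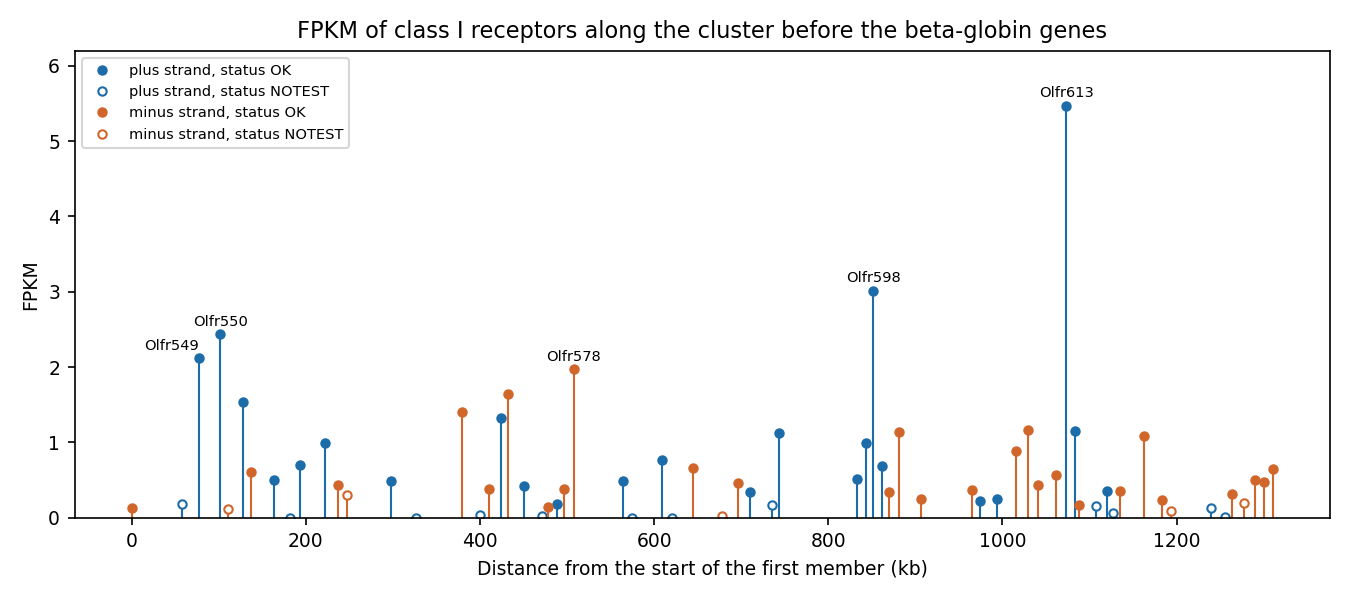
FPKM (vertical axis) of the 67 members against the distance of each locus from the start of the first member in kb (horizontal axis). Blue is the plus strand and orange the minus strand, with filled points for status OK and open points for NOTEST. Olfr613 stands alone at 5.47, and low and high receptors are interspersed along the cluster.

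Along the chromosome the members span 1315 kb, with a median gap of 12.9 kb between neighbouring loci. The widest gap is 89.1 kb, between Olfr594 and Olfr596, and the narrowest 2.90 kb, between Olfr615 and Olfr616, whose annotated exons overlap by 52 bases on opposite strands in GENCODE M21. The sources used here do not state whether strand was used in the counting. In the deposited table, however, both loci are as long as coding sequence and lie 2.90 kb apart. The spans behind their FPKM values therefore share no bases. Olfr615 had an FPKM of 1.15 and Olfr616 had 0.171. No other member shared exonic bases with another GENCODE gene.

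High and low receptors were interspersed. Cut into 4 runs of map order, the first 17 members had a median of 0.486 and included Olfr550 and Olfr549. The next 17, with Olfr578 as their highest, had 0.383. The third 17 had 0.570, with Olfr613 and Olfr598, and were the run with the highest median and no member below 0.1. The last 16, next to the globin genes, had a median of 0.275, and their highest was Olfr615. Spearman's rho between the FPKM of neighbouring members was 0.05 over 66 pairs, given as a description. The median was 0.421 over 35 members on the plus strand and 0.407 over 32 on the minus strand.

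The members nearest the globin genes were Olfr69, Olfr68 and Olfr67, older names of which (3'beta3, 3'beta2 and 3'beta1) refer to that position. Their FPKM values were 0.504, 0.470 and 0.646 in map order. No member among the last 7, from Olfr243 to Olfr67, reached 1, beside 20.9% of all 67 members and 52.5% of all entries. With so few members this is not read as a pattern. The first members were Olfr543 (109625287 to 109626416) at 0.130 and Olfr547 (109683263 to 109684202) at 0.179. The last were Olfr68 (110925910 to 110926857) and Olfr67 (110935726 to 110940344). Just outside, the nearest entries of the table were Olfr521 on the low side, at 0.189 and in another cluster, and Olfr66 on the high side, at 0.295. The receptors kept out by name lie among the first members. Of these, Olfr544 had 1.02, Olfr545 had 0.365, Olfr558 had 0.270, and Olfr78 and Olfr560, listed with the same locus, had the same 0.866.

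**Figure D2:**
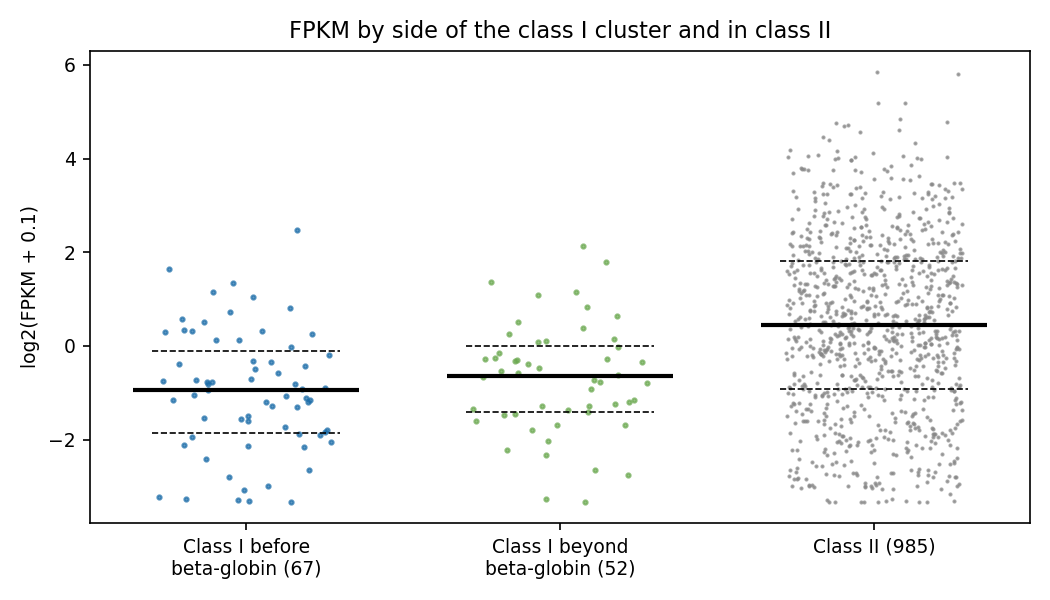
log2(FPKM + 0.1) (vertical axis) of 67 class I members before the beta-globin genes, 52 class I entries beyond them and 985 class II entries. Each point is an entry, the solid bar is the median and dashed lines are the quartiles. The class I sides overlap over nearly their whole range, and their quartiles lie below those of class II.

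Set beside the other side of the cluster, the members had a slightly lower median. The median FPKM was 0.421 over 67 members and 0.540 over 52 class I entries beyond the globin genes, a difference in medians of -0.30 on the log2(FPKM + 0.1) scale and of -0.12 on the log2(FPKM + 1) scale. The share at 1 or more was 20.9% among members and 21.2% beyond. The share below 0.1 was 14.9% among members (10 of 67) and 7.69% beyond (4 of 52). The highest value was 5.47 among members and 4.31 beyond. No test of these differences was made, and the ranges overlap nearly throughout.

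Against class II receptors the distance was larger. The median was 0.421 in members and 1.27 in 985 class II entries, a difference of -1.39 on the log2(FPKM + 0.1) scale (-0.67 with a pseudocount of 1), which understates the change of low genes. On chromosome 7 alone, 110 class II entries had a median of 1.39. Low medians also occurred outside class I. Among 99 class II entries of chromosome 9 between 37.5 and 40 Mb the median was 0.465, and 23.2% of them reached 1.

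Features of the annotated transcripts were set side by side in the same way, without a test. All 67 members, all 52 entries beyond and 968 of the 985 class II entries have such a transcript. Median coding length was 948 bases in members and on the other side, leaving out the stop codon, and 936 bases in class II. Median GC content of the coding sequence was 45.6% in members, 46.7% beyond and 43.5% in class II. The median annotated 5' untranslated region (UTR) was 213.5 bases over 60 members that have one, 219 over 49 beyond and 305 over 905 of class II. A single annotated exon was found for 16.4% of members, 11.5% of those beyond and 10.3% of the 968 annotated class II entries.

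By receptor family, the members fall into 28 MOR families, of which 9 have at least 3 members and 10 have a single member. The family medians below rest on 3 to 7 members each. Olfr596 has no MOR name in the RefSeq table. MOR14, the largest with 7 members, had the lowest median of these 9 families, at 0.019. Of its members, Olfr585, Olfr564, Olfr583, Olfr574 and Olfr568 lay below 0.1. They make up 5 of the 10 members below that level. The other two were Olfr561 at 0.486 and Olfr566 at 1.40, so the family ran from among the lowest to among the 12 highest. A further MOR14 receptor, Olfr560, shares its value with Olfr78 and was kept out by the rule. Without MOR14 the median of the remaining 60 members was 0.434.

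MOR23 had the highest median of the 9 families, at 0.998. Its 3 members are Olfr598 at 3.02, Olfr597 at 0.998 and Olfr599 at 0.689, which are neighbours on the plus strand. MOR30 had 0.488 over 3 members, from Olfr569 at 0.383 to Olfr584 at 0.773. MOR8 had 0.426 over 4 members and spread from Olfr575 at 0.142 to Olfr570 at 1.32. MOR24 had 0.417 over 4 members, from Olfr593 at 0.168 to Olfr601 at 1.14. The lowest MOR23 member thus had a higher value than the median of each of the other 8 families.

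MOR26 had a median of 0.312 over 3 members, from Olfr608 at 0.255 to Olfr622 at 1.09. MOR22 had 0.299 over 4 members, from Olfr628 at 0.0074 to Olfr69 at 0.504, and none reached 1. MOR32 had 0.291 over 4 members, from Olfr589 at 0.026 to Olfr594 at 1.12. MOR31 had 0.266 over 6 members, from Olfr619 at 0.059 to Olfr549 at 2.12. In 7 of the 9 families exactly 1 member reached an FPKM of 1, and in MOR22 and MOR30 none did. These 9 families hold 38 members. Over all 67 members the share at 1 or more was 20.9%, and over all entries 52.5%, so the counts per family are not a pattern of their own.

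Some families lie on both sides of the globin genes. MOR31 had a median of 0.266 over its 6 members and of 0.883 over 5 receptors beyond (0.268 to 2.03). MOR32 had 0.291 over 4 members and 0.212 over 7 beyond (0.115 to 4.31). The single MOR1 member, Olfr623, had 0.238, and its relatives Olfr64, Olfr65 and Olfr66 just beyond the globin genes had a median of 0.295. The order of the sides was thus not the same in MOR31 and MOR32.

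**Figure D3:**
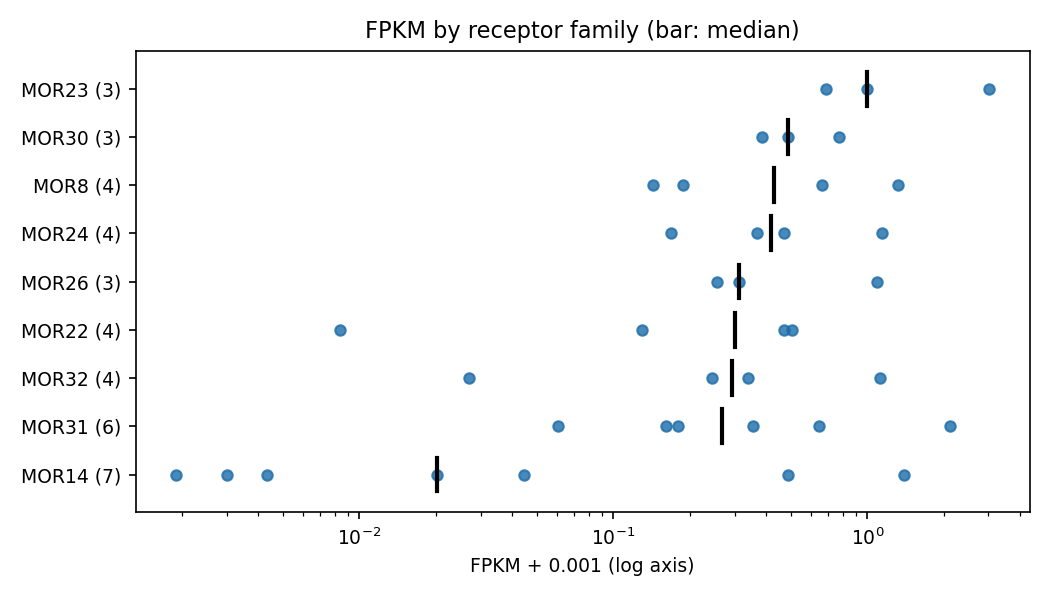
FPKM + 0.001 on a log axis (horizontal) of the members of the 9 families with at least 3 members (vertical, number of members in parentheses). Points are receptors and bars are medians. MOR14 spans from 0.00090 to 1.40, and MOR23 lies highest.

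Near-identical receptors within the set were compared, because reads that fit several genes can be split or assigned wrongly, and the sources used here do not state how such reads were treated. Over 2211 pairs of members the median protein identity was 45.8%, and 12 pairs, formed by 20 members, reached 90%. The 4 most alike were Olfr596 and Olfr603 (98.7%), Olfr611 and Olfr612 (98.1%), Olfr243 and Olfr628 (97.5%), and Olfr69 and Olfr68 (96.8%). Below, the stretch of 60 coding bases in which a pair differs most is shown for the pair with the fewest differences, for Olfr243 and Olfr628, and for close pairs with unequal FPKM, Olfr597 and Olfr598 and Olfr566 and Olfr585. Sequences are from GENCODE M21 transcripts of chromosome 7, 5′ to 3′, with the differing bases in capitals.
Olfr596: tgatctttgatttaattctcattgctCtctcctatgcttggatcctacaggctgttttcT
Olfr603: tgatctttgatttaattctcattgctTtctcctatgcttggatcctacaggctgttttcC
Olfr243: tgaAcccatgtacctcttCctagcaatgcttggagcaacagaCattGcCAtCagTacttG
Olfr628: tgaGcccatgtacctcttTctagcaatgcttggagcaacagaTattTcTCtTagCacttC
Olfr597: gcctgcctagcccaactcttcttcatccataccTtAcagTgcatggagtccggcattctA
Olfr598: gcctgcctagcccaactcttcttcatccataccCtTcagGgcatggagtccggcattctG
Olfr566: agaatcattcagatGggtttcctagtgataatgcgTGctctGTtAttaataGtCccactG
Olfr585: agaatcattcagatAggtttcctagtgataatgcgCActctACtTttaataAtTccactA

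Olfr596 and Olfr603 differ at 5 of 936 coding bases, with a longest identical run of 295. Only 26.3% of the coding 50-mers of each are found in no other Olfr transcript, so their FPKM values of 0.512 and 0.244 are uncertain. Olfr611 and Olfr612 differ at 24 of 969 bases and had 0.432 and 0.570. Olfr69 and Olfr68, also with 24 differing bases, had 0.504 and 0.470. In these pairs of neighbours, Olfr611 with Olfr612 and Olfr69 with Olfr68, the values lay within 1.5-fold of each other. Olfr33 and Olfr559, also neighbours and 94.0% identical in protein, had 0.436 and 0.308. The neighbours Olfr243 with Olfr628 and Olfr597 with Olfr598 were further apart in FPKM, as given next.

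Some other close pairs were unequal, neighbours among them. Olfr243 had 0.128 and Olfr628 had 0.0074, with 24 differing bases out of 948, and both have the status NOTEST. Olfr598 had 3.02 and Olfr597 had 0.998, with 18 differing bases and a longest identical run of 117. The widest gap was that of Olfr566 at 1.40 and Olfr585 at 0.00090, which encode proteins 94.0% identical. Olfr583, at 93.7% identity to Olfr566, had 0.0033. Olfr585 and Olfr583 both have the status NOTEST and values near 0, so the size of these gaps is uncertain. Olfr566 kept 86.9% of its coding 50-mers unshared and Olfr585 kept 74.3%.

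Across the 12 pairs the median absolute difference was 0.84 on the log2(FPKM + 0.1) scale, beside 1.28 over the other 2199 pairs. The difference was at most 1 in 7 of the 12. Pairs share genes and reads, so these medians are descriptions. In all, 19 of the 67 members had less than 75% of their coding 50-mers unshared and had a median of 0.432. The 48 members at 75% or more had a median of 0.402 and included 13 of the 14 receptors at 1 or more, the exception being Olfr598.

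**Figure D4:**
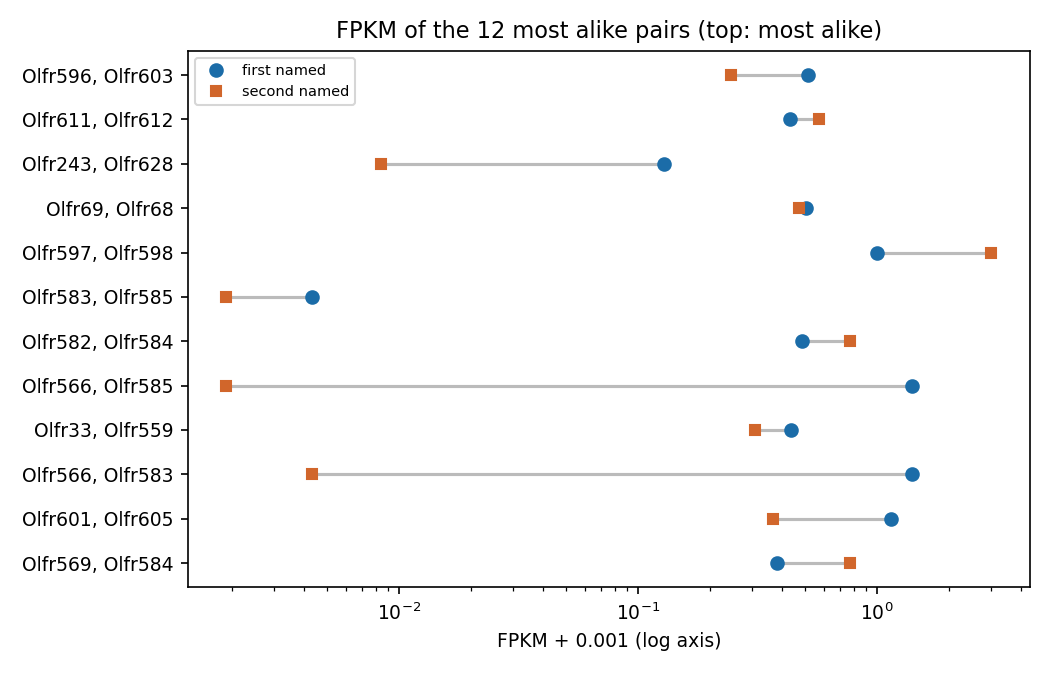
FPKM + 0.001 on a log axis (horizontal) for the 12 pairs of members with at least 90% protein identity (vertical, most alike on top). Circles are the first-named and squares the second-named receptor of a pair, joined by a line. Olfr69 and Olfr68 nearly coincide, while Olfr566 lies far above Olfr585 and Olfr583.

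Since the title of the series refers to post-transcriptional features, levels were compared with the annotated transcripts of the members. Receptors with a single annotated exon in GENCODE M21 had low values. Their median was 0.043 over 11 members, against 0.453 over 34 with 2 exons, 0.483 over 18 with 3 and 0.699 over 4 with 4. Over all annotated entries the medians were 0.0892 with 1 exon, 1.05 with 2, 1.59 with 3 and 2.42 with 4 or more. Of the 11 single-exon members, 7 lay below 0.1 (63.6%), 9 had the status NOTEST (81.8%) and 5 were MOR14 receptors. Among all 119 single-exon entries, 51.3% lay below 0.1 and 73.1% had the status NOTEST, so low values of single-exon entries are not particular to the members. The 4 single-exon members above 0.1 were Olfr593 at 0.168, Olfr547 at 0.179, Olfr608 at 0.255 and Olfr613. Olfr613 is the highest member of all, and its single exon holds 1419 bases of 5' UTR.

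No 5' UTR was annotated for 7 members, namely Olfr547, Olfr555, Olfr564, Olfr568, Olfr574, Olfr583 and Olfr593. Their median was 0.019 and their highest value 0.179, while the 60 members with a 5' UTR had a median of 0.469. All 7 have a single annotated exon and the status NOTEST. They are thus a part of the single-exon members above and not a separate group. The same comparison over all entries is not given here. Exon number and FPKM had a Spearman rho of 0.36 over 67 members, and of 0.073 over the 56 members with at least 2 exons. With 5' UTR length rho was 0.38 over 60 members. These are descriptions across genes that share the libraries and related sequence. What is annotated depends on the transcripts known for each gene, and its part in these relations was not tested.

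**Figure D5:**
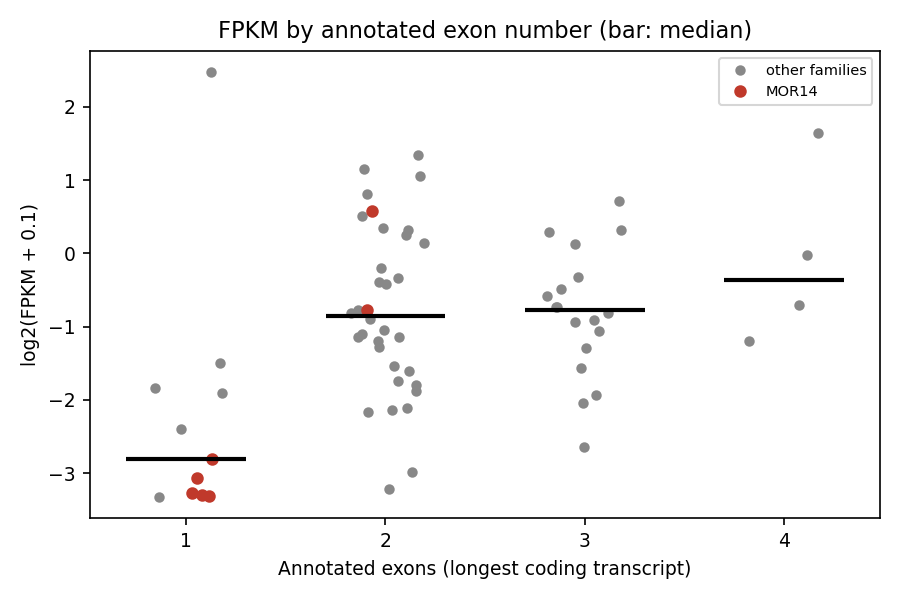
log2(FPKM + 0.1) (vertical axis) of the 67 members by number of exons in the longest coding transcript (horizontal axis). Red points are MOR14 receptors, grey points are other families, and bars are medians. Most single-exon receptors lie at the bottom, 5 of them MOR14, and Olfr613 stands far above them.

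The gene model behind an FPKM differed between members. For 52 members the locus was as long as an annotated coding sequence, and these had a median of 0.427. The other 15 had longer loci and a median of 0.366. Only 4 of these, Olfr613, Olfr67, Olfr69 and Olfr630, spanned 3 kb or more. FPKM and locus length had a Spearman coefficient of 0.01 over the 67 members. Thus the long locus of Olfr613 went with the highest value, while Olfr630, with 3201 bp, had 0.200.

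Older symbols ending in -ps1, used for pseudogenes, are listed for 8 members, all typed as protein-coding in the RefSeq table. They are Olfr613, Olfr612, Olfr596, Olfr592, Olfr603, Olfr576, Olfr243 and Olfr628. Their FPKM values ran from 0.0074 for Olfr628 to 5.47 for Olfr613, with a median of 0.291. The highest class I receptor of the table is therefore among the members with such an older symbol. Other kinds of older name were not searched, and the share over all entries is not given here.

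RefSeq windows of 250 bases before to 50 after the annotated gene start (GRCm38.p6) were available for 59 members. In 42 of them the start was followed at once by ATG, as in 73.0% of the 926 Olfr windows. Such windows hold sequence before the coding region and need not hold the promoter. The share of such windows among all 27025 is not given here, so shares over all windows may rest on unlike sequence. Motifs were searched on both strands. CCCNNGGG, the core bound by Olf1/EBF factors, was found in 2 member windows, those of Olfr550 and Olfr574 (3.39%, beside 2.92% of 926 Olfr windows and 13.4% of all 27025 windows). Homeodomain cores were more frequent. TAATGA was found in 30.5% of member windows, beside 29.0% of Olfr and 9.99% of all windows. TAATTG was found in 22.0% of member windows, beside 23.1% of Olfr and 8.15% of all windows. TAATTA was found in 11.9% of member windows (7 of 59), beside 18.7% of Olfr and 5.31% of all windows. TATAAA was found in 44.1% of member windows, beside 41.3% of Olfr and 14.2% of all windows. The shares in member windows lay within 1.5-fold of those in all Olfr windows except for TAATTA, which was less frequent. These differences were not tested, and a match is a description of letters only. Of the 17 member windows that do not open with ATG, 11 held TATAAA, 6 TAATGA, 3 TAATTG, 2 TAATTA and 1 CCCNNGGG.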

How the data were processed

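Olfr transcripts were measured by RNA-seq in 2 samples of adult olfactory epithelium, placed in 1 group by their titles. The authors deposited 1 FPKM value per Olfr entry, with locus and status, per the file headers. TopHat2, Bowtie2 and Cuffdiff and the build mm9 are named, per the submitters' processing notes. The sources used here state no versions, annotation, mapped reads or treatment of shared reads. Depth is unknown. Of 266 low entries, at most 30.8% came within 0.1 of whole reads over the step sizes tried, so no counting interval is given. Since nothing ties the value to a library, replicate error could not be computed.

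The members and lists were chosen with earlier results of these data known. Locus starts count from 0, and 1 was added. Class I means a MOR family from 1 to 42 among RefSeq synonyms or, without one, by symbol number. Transcript features are those of the longest coding transcript in GENCODE M21 (GRCm38), which held all 67 members and was used for no coordinates. Proteins for identity were translated from these transcripts, not taken from RefSeq as planned (global alignment, Biopython 1.88). Coding 50-mers were compared with all Olfr transcripts on both strands. Differences are between medians of log2(FPKM + 0.1). No p-value was computed. Functions were tested on simulated data.

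Named in full were the 12 highest and 6 lowest members, those at the limits, the highest and lowest of each family with at least 3 members, and the 4 most alike pairs. Others were chosen after their values were seen. Alternatives used another pseudocount, an FPKM minimum of 0.1, status OK, coding-only loci, at least 75% unshared 50-mers, other thresholds and other transcripts.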

Additional observations from a re-analysis of the deposited data

How the results depend on the processing

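The median of the members and their share of the summed FPKM stayed within 1.5-fold under each alternative run. The difference from the class I entries beyond the globin genes, -0.30 at first, kept its sign and ran from -0.41 with 75% unshared 50-mers to -0.12 with a pseudocount of 1. The limits for a move were 1.5-fold (0.58 on the log2 scale) or 0.1 in rho; the log2 limit exceeds that difference itself, so it says nothing of its stability. With a pseudocount of 1, the difference from the rest of the table was -0.59 instead of -1.26, and that from class II was -0.67 instead of -1.39, since the larger pseudocount compresses low values. The number of members past the threshold was 26 at an FPKM of 0.5 and 4 at 2 (5.97%, beside 34.6% of all entries). For 0.5 the share over all entries is not given here. The Spearman coefficient with exon number was 0.12 at FPKM 0.1 or more, 0.022 for status OK, 0.48 for coding-only loci and 0.22 for members with at least 75% unshared 50-mers. It was 0.21 without MOR14 and 0.073 with at least 2 exons, both added after seeing the data. That with 5' UTR length was 0.28 at FPKM 0.1 or more, 0.24 for status OK and 0.28 with 75% unshared 50-mers. That with locus length, 0.01 at first, turned to -0.021, -0.042 and -0.098 at FPKM 0.1 or more, for coding-only loci and with 75% unshared 50-mers. The filters drop members, and no other cause was tested. Leaving out pseudogenes removed no member. No paired analysis was possible because there is a single group with a single value for each entry, and no replicate could be left out for the same reason. The counting error behind values below 0.1 could not be given without the depth.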
